A study of Mus musculus with 10 samples.

Results

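Ribosome biogenesis and Myc target genes were described on 10 arrays of mouse splenic B cells that had been separated by whether they secreted IL-10, a cytokine that restrains inflammation. The set was a list of 38 genes given by symbol, namely Myc itself, genes of ribosome production and 3 metabolic genes known as Myc targets. Each gene was matched to every probe of the intensity table that carried its symbol or an older symbol, ignoring case. This gave 64 probes for 36 genes, and 33 genes were measured, meaning that at least 1 probe was detected (detection p below 0.01) on 2 arrays or more. For comparison, 11185 genes were measured on the array as a whole. Fbl and Ddx18 had no probe under the names searched, and the probes of Utp20, Wdr12 and Nop16 were detected on no array.

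The cells came from spleens of C57BL/6 mice and were hybridised to Illumina MouseWG-6 beadchips. There were 5 arrays of IL-10+ B cells (replicates 1 to 5), 3 arrays of IL-10- B cells (replicates 2, 3 and 5) and 2 arrays of total B cells. Cells were stimulated for 5 h with LPS, a bacterial ligand of TLR4, at 10 µg/ml, PMA, an activator of protein kinase C, at 50 ng/ml and ionomycin, a calcium ionophore, at 500 ng/ml. A secretion assay and then flow sorting separated IL-10+ from IL-10- cells. The labels give the same stimulation text for all samples and say nothing apart of the total B cells, so their treatment is known only from that text. Whether replicates are separate mice is not stated, so the p-values reflect only the spread among these arrays, which could be technical. Slide 1 held IL-10+ replicates 1, 2 and 3 and IL-10- replicates 2 and 3, and slide 2 held the remaining arrays, including both of total B cells.

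Myc is a transcription factor that pairs with Max and binds the E-box CACGTG, and it is known to raise the transcription of genes for growth. Among its best known targets are genes for making ribosomes, a process that starts in the nucleolus with RNA polymerase I, goes on with small nucleolar RNPs that modify the ribosomal RNA, and ends with the assembly of the small and large subunits. Resting B cells hold little Myc, and signals that activate them, LPS among these, are known to induce it.

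The measured levels are log2 intensities after background correction and quantile normalisation, and a change is the difference of group means on that log2 scale. A gene was called when its limma p, adjusted by the Benjamini-Hochberg method over all 11185 genes, was under 0.05. Between 13910 and 15610 probes were detected per array. The range was 14410 to 15610 in IL-10+ cells, 13910 to 14313 in IL-10- cells and 14389 to 14987 in total B cells. The mean ± SD of Il10, whose product set the sort, was 13.18 ± 0.28 over the 5 IL-10+ arrays, 7.75 ± 0.19 over the 3 IL-10- arrays and 10.26 ± 0.53 over the 2 total B arrays. Of 7 B cell markers, 6 were measured, and Cd79a had no probe under that name. The log2 of the summed intensities of those 6 was 13.23 to 13.53 in IL-10+ cells, 13.56 to 13.81 in IL-10- cells and 13.32 to 13.59 in total B cells, so all IL-10+ arrays lay below all IL-10- arrays. Of the defining T cell markers, Cd3d, Cd3e, Cd4 and Cd8a were detected nowhere, and the 2 measured of 6, Cd3g and Lck, summed to 11.00 to 11.85, 10.47 to 11.26 and 10.60 to 10.71 in IL-10+, IL-10- and total B cells. Lck, the brighter, was higher in IL-10+ than in total B cells (0.81 log2, limma adjusted p = 0.0420). Against IL-10- cells Lck had 0.52 and was not called (adjusted p = 0.123). Cd3g was called higher in IL-10+ cells than in IL-10- and total B cells (adjusted p = 0.00432 and 0.0110). Only IL-10+ cells showed Cd3g above background, and only in 3 of their arrays. With the other groups set as for Prdm1 below, its folds were at least 0.99 and 1.09. Of 6 macrophage markers, Csf1r and Cd14 were detected nowhere, and the 3 measured, Adgre1, Cd68 and Mpeg1, summed to 11.38 to 11.96, 9.88 to 10.73 and 9.95 to 10.42 in IL-10+, IL-10- and total B cells. That sum followed Mpeg1 (1.57 log2 in IL-10+ against IL-10- cells, limma adjusted p = 0.00272), whereas Adgre1 had -0.06 and Cd68 -0.10 (adjusted p = 0.945 and 0.856). Erythroid Hbb-b1 was 7.30 to 8.21, 8.66 to 9.62 and 9.86 to 10.12 in that order. Of 5 plasma cell markers, Sdc1 was detected nowhere, and the 4 measured summed to 13.58 to 14.00, 13.85 to 14.15 and 13.84 to 14.10, a sum that followed Irf4. Of these, 3 were higher in IL-10+ than in IL-10- cells. Jchain, the joining chain of secreted antibody, had 2.48 ± 0.55 log2 (SE, adjusted p = 0.0119), and Xbp1, a factor of the secretory pathway, 0.87 ± 0.16 (SE, adjusted p = 0.00429). Prdm1, a transcription factor of plasma cell differentiation, was detected on 5 of 5 IL-10+ and 0 of 3 IL-10- arrays and was at least 2.02-fold higher (adjusted p = 0.00696), with the IL-10- arrays set to their dimmest detected probe or to the Prdm1 value, whichever was higher. Irf4 had -0.55 and was not called (adjusted p = 0.0502). Against total B cells, Xbp1 was higher in IL-10+ cells (0.64, adjusted p = 0.0274), and Jchain and Prdm1 were not called (1.63 and 0.21, adjusted p = 0.0877 and 0.737). The part of these marker differences in the results below, those of Myc among them, was not tested. No marker of natural killer cells (4 listed) or neutrophils (5 listed) was measured.

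The promoters of the genes that carry the results are shown because Myc is known to act through E-boxes near gene starts. RefSeq promoters of assembly GRCm38.p6 were found for 31 of the 38 genes, each from 250 bases before to 50 bases after the start. Myc, Npm1, Fbl, Srm, Bop1, Rrp12 and Rrs1 are named only. The motif CACGTG, which reads the same on both strands, lay in a promoter of 5 of the 31 genes (16.1%), against 2187 of 27025 genes (8.09%) in the whole promoter table. Counting the first base after the start as 1, its first base stood at -60 in Nop2, 3 in Pes1, 25 in Tsr1, 18 in Wdr43 and 38 in Utp20. The 250 bases before the start are printed for Rrp9, Cad and Odc1, which together with Myc had the 4 smallest adjusted p between the sorted fractions. They are also printed for Ncl, a nucleolar gene that was not called, and for Nop2. Of the 31 genes searched, only Nop2 had the motif before its start. The lower-case letters run 5′ to 3′ along the gene's strand, and capitals mark the E-box. Rrp9 is at chr9:106477059-106477308 on the plus strand, Cad at chr5:31054530-31054779 on the plus strand, Odc1 at chr12:17544623-17544872 on the plus strand, Ncl at chr1:86359456-86359705 on the minus strand and Nop2 at chr6:125131633-125131882 on the plus strand.
Rrp9: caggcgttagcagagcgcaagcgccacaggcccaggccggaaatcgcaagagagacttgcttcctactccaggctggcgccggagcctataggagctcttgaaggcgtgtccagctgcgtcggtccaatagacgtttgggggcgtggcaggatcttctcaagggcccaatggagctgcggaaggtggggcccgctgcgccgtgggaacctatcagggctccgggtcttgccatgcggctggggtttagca
Cad: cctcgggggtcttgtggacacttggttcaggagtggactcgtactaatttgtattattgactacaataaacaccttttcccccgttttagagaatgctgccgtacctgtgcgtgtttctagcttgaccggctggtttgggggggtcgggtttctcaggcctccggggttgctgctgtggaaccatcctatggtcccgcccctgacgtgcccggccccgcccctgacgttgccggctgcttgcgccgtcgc
Odc1: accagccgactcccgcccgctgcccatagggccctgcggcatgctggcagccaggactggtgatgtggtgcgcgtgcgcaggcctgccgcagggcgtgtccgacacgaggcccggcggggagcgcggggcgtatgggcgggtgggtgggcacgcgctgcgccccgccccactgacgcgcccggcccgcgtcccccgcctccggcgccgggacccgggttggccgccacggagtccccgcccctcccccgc
Ncl: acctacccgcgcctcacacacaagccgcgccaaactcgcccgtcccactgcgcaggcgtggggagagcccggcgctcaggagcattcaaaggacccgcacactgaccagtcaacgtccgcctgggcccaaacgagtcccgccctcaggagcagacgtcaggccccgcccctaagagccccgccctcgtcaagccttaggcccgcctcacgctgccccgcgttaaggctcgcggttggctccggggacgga
Nop2: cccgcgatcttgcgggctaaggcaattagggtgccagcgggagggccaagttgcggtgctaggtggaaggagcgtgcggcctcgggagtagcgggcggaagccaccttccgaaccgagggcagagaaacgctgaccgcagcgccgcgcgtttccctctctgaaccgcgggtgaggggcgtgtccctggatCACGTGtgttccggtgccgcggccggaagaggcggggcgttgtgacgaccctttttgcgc
None of Rrp9, Cad, Odc1, Ncl or Ppan held the motif in the window searched, which says only that these letters are not in that window.

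IL-10+ cells were compared with IL-10- cells to see whether cells that secrete the cytokine differ in these genes from stimulated cells that do not. Of the 33 measured genes, Myc, Rrp9, Cad and Ppan were lower in IL-10+ cells and Odc1 was higher. That is 5 of 33, or 15.2%, where 18.1% of all genes were called, 9.12% higher and 9.01% lower. The share of called genes in the set was thus near that of the array. The median change of the 33 genes was -0.10 log2, against -0.03 over all genes. Of the 33, 23 were below 0 and 10 above, against 6005 and 5180 of all 11185 genes. An unadjusted p under 0.05 was reached by 11 of the 33, against 3695 of all 11185. Fewer cells that express a gene and less of its RNA per cell cannot be told apart in such bulk samples. The fit behind these calls did not pair arrays of the same replicate number. Blocking on the replicate number left 3 of the 5 genes called (Cad, Myc and Odc1), while the count over all genes was 1331 against 2028. With arrays scaled to a common median in place of quantile normalisation, no gene of the set was called higher and 4 were called lower. That scaling moved the median of all genes to -0.14 and the split of all calls to 790 higher and 1462 lower, against 1020 and 1008.

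**Figure D1:**
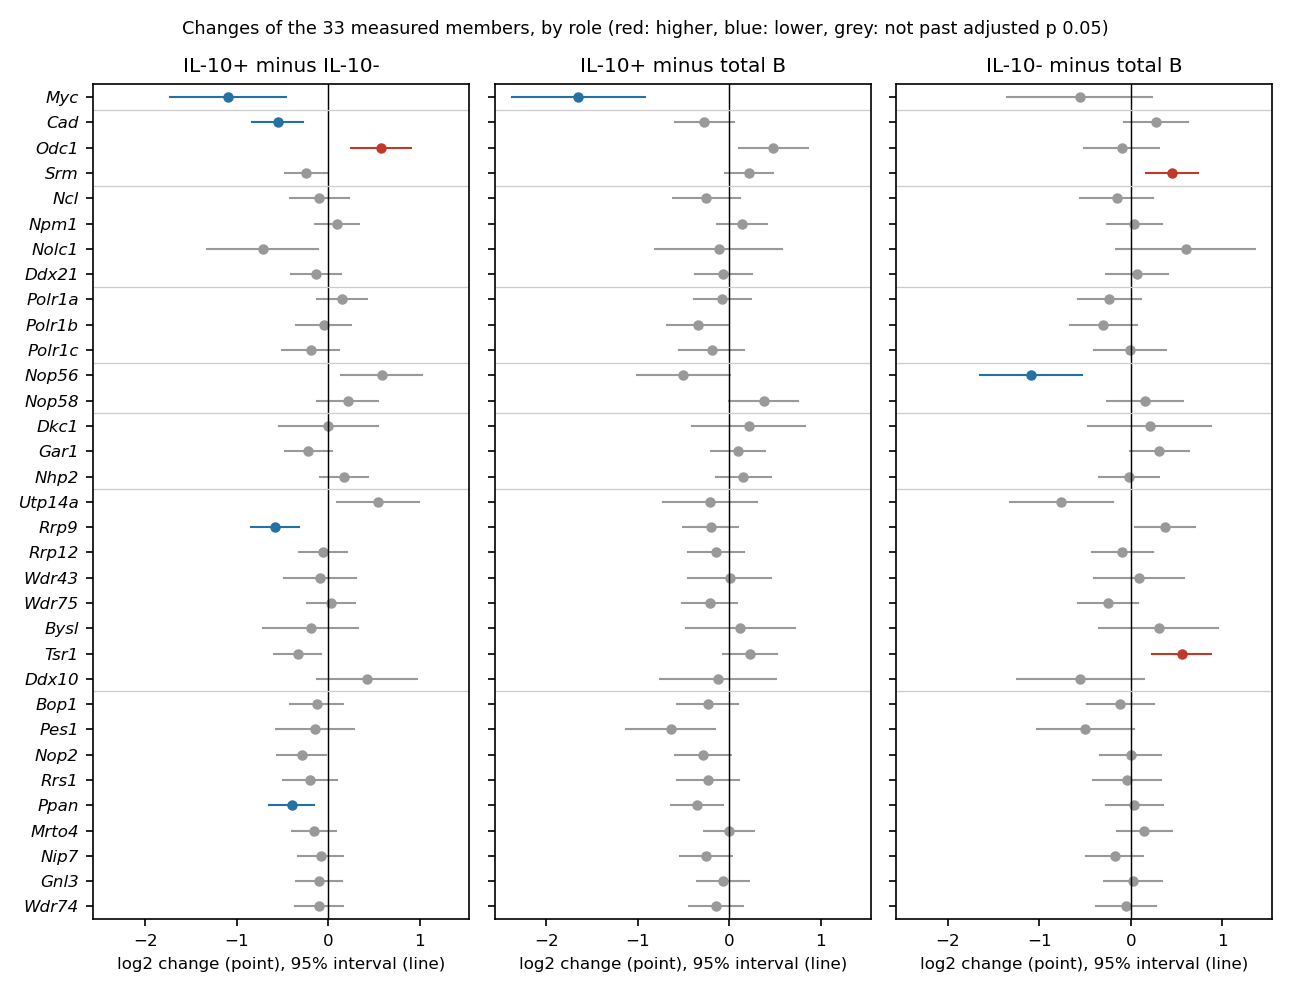
Change of each measured gene (log2, x axis) in the 3 comparisons, ordered by role from Myc at the top to large subunit assembly at the bottom. Points are changes and lines 95% intervals, red for called higher, blue for called lower and grey for not called. Myc has the lowest change in the first panel (-1.10) and in the second (-1.65), and most other lines cross 0.

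Myc was lower in IL-10+ cells than in either other group. Its level was 8.69, 9.23, 8.54, 8.76 and 8.61 in IL-10+ replicates 1 to 5, against 10.60, 9.90 and 9.09 in IL-10- replicates 2, 3 and 5 and 10.36 and 10.48 in total B cells. The highest IL-10+ array, replicate 2, lay just above the lowest IL-10- array, replicate 5, so the sorted fractions overlapped, but IL-10+ was lower than IL-10- within each of the 3 same-numbered pairs, and every IL-10+ array lay at least 1.13 log2 below both total B arrays. Between IL-10+ and IL-10- cells the change was -1.10 ± 0.29 log2 (SE), so that Myc was 2.14-fold higher in IL-10- cells, with a limma adjusted p of 0.0243. Between IL-10+ and total B cells it was -1.65 ± 0.33 log2 (SE), 3.15-fold higher in total B cells, with an adjusted p of 0.00558. IL-10- and total B cells differed by -0.56 ± 0.36 log2 (SE), which was not called (adjusted p = 0.335). That value depended on single IL-10- arrays, being -0.17 without replicate 5 (adjusted p = 0.723) and -0.93 without replicate 2 (adjusted p = 0.0695). With slide as a block it was -0.89 (adjusted p = 0.137), and within slide 2, where replicate 5 is the only IL-10- array, it was -1.33 and called (adjusted p = 0.0176). The IL-10- arrays disagreed most among themselves, with an SD of 0.76 against 0.27 in IL-10+ and 0.09 in total B cells. Within slide 1 the change between IL-10+ and IL-10- cells was -1.43 (adjusted p = 0.0427), and within slide 2 it was -0.40 (adjusted p = 0.297). The call was lost without IL-10- replicate 2 (-0.73, adjusted p = 0.0827), IL-10- replicate 3 (-1.08, 0.0653), IL-10+ replicate 3 (-1.04, 0.0507) or IL-10+ replicate 5 (-1.06, 0.0505). Between IL-10+ and total B cells it was lost only without total B replicate 2 (-1.60, 0.0530), among the alternatives run. The second Myc probe was detected on no array.

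**Figure D2:**
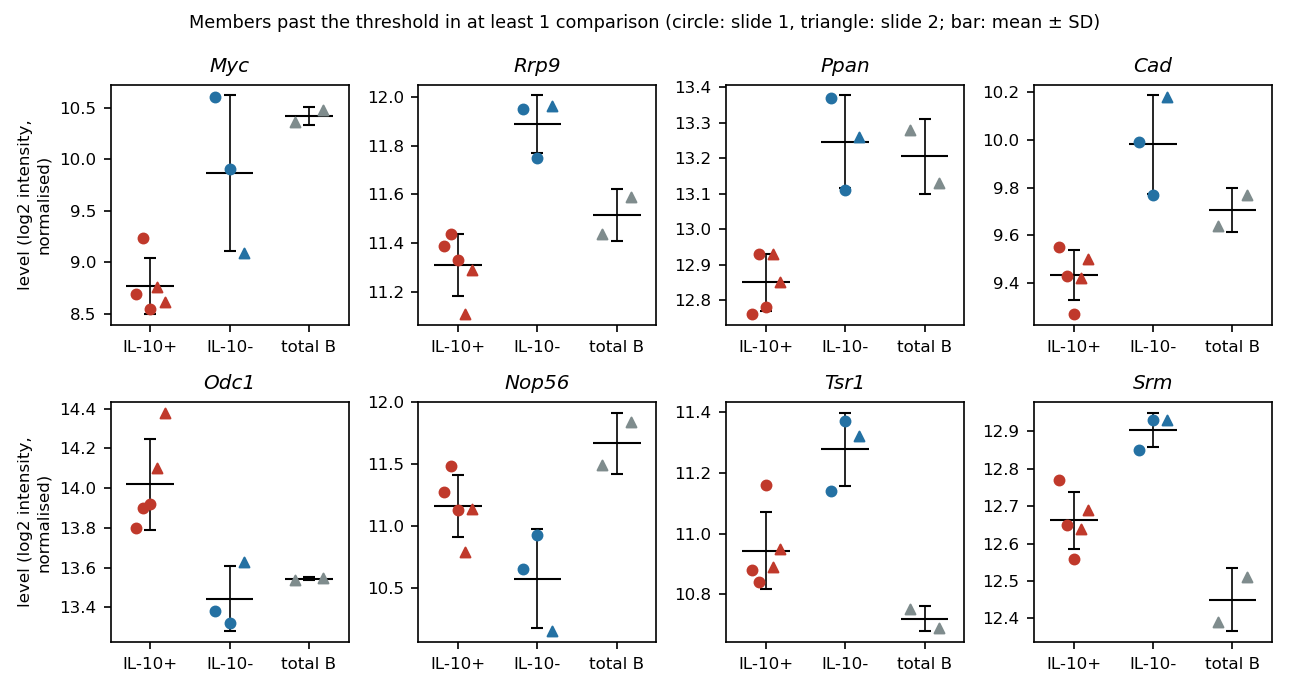
Level of each gene called in at least 1 comparison (log2 intensity, y axis, which does not start at 0) in IL-10+, IL-10- and total B arrays. Each point is 1 array, circles for slide 1 and triangles for slide 2, and bars are mean ± SD. All 5 IL-10+ arrays lie below all IL-10- arrays for Rrp9, Ppan and Cad, and above them for Odc1, while for Myc the sorted fractions overlap.

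The metabolic targets did not move together. Odc1, ornithine decarboxylase, which starts polyamine synthesis, was 13.80, 13.90, 13.92, 14.10 and 14.38 in IL-10+ replicates 1 to 5, against 13.38, 13.32 and 13.63 in IL-10- replicates 2, 3 and 5. Total B arrays had 13.54 and 13.55. Every IL-10+ array stood above every other array, IL-10+ replicate 5 highest of all. The change against IL-10- cells was 0.58 ± 0.15 log2 (SE, limma adjusted p = 0.0234), a level 1.49-fold higher, and the change against total B cells was 0.48 ± 0.17 (SE), which was not called (adjusted p = 0.0689). Against total B cells it was called with slide as a block (0.68, adjusted p = 0.00883), within slide 2 (0.70, 0.0416) and with no background correction (0.48, 0.0347). With median scaling the change against IL-10- cells was 0.34 and not called (adjusted p = 0.113), and the call was also lost without IL-10- replicate 2 (adjusted p = 0.0796), IL-10- replicate 3 (0.0784) or IL-10+ replicate 4 (0.0514). Within slides 1 and 2 it was 0.52 and 0.61, with adjusted p of 0.0864 and 0.159.

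Cad, the enzyme of the first steps of pyrimidine synthesis, was 9.55, 9.43, 9.27, 9.42 and 9.50 in IL-10+ replicates 1 to 5, against 9.99, 9.77 and 10.18 in IL-10- replicates 2, 3 and 5. Total B arrays had 9.64 and 9.77. All IL-10+ arrays were below all others, and the change against IL-10- cells was -0.55 ± 0.13 log2 (SE), with a limma adjusted p of 0.0145. Within slide 1 the change was -0.46 (adjusted p = 0.148) and within slide 2 -0.73 (adjusted p = 0.0953). Against total B cells the change was -0.27 ± 0.14 (SE) and was not called (adjusted p = 0.201).

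Srm, spermidine synthase, which acts after Odc1 in the polyamine pathway, was 12.77, 12.65, 12.56, 12.64 and 12.69 in IL-10+ replicates 1 to 5, against 12.85, 12.93 and 12.93 in IL-10- replicates 2, 3 and 5. Total B arrays had 12.39 and 12.51. The 3 groups did not overlap, with total B cells lowest and IL-10- cells highest. Only IL-10- against total B cells was called, with a change of 0.45 ± 0.13 log2 (SE) and a limma adjusted p of 0.0423. IL-10+ against IL-10- cells gave -0.24 ± 0.10 (SE, adjusted p = 0.135) and IL-10+ against total B cells 0.22 ± 0.12 (SE, adjusted p = 0.218). The call against total B cells was lost under 14 of 19 alternatives, with the mean of its 3 probes among them (0.20, adjusted p = 0.452), and when any array other than IL-10+ replicate 1 was left out (adjusted p of 0.0562 to 0.218). Of the other Srm probes, 1 gave 0.54 and 1 gave -0.04 between IL-10+ and IL-10- cells, so the probes disagreed in sign.

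Among genes that organise the nucleolus, none of 4 was called in any comparison. Of all genes, 18.1% were called in IL-10+ against IL-10-, 22.4% in IL-10+ against total B and 13.6% in IL-10- against total B cells. With only 4 genes, the absence of calls is not read as a difference from those shares. Npm1, nucleophosmin, a histone and ribosome chaperone of the nucleolus, was 14.62, 14.79, 14.78, 14.78 and 14.60 in IL-10+ replicates 1 to 5, against 14.54, 14.72 and 14.58 in IL-10- replicates 2, 3 and 5, and 14.61 and 14.54 in total B cells. The groups overlapped, and IL-10+ minus IL-10- was 0.10 log2 with a 95% interval of -0.14 to 0.34. With median scaling it was -0.24, also not called. Ncl, nucleolin, whose promoter is printed above, was 11.92, 11.75, 11.90, 12.06 and 11.79 in IL-10+ replicates 1 to 5, against 11.72, 12.07 and 12.16 in IL-10- replicates 2, 3 and 5, and 11.94 and 12.33 in total B cells. Its change between the sorted fractions was -0.10 (95% interval -0.42 to 0.22). Ddx21, an RNA helicase, had -0.13 (adjusted p = 0.497). Nolc1, a chaperone of small nucleolar RNPs, had -0.72 ± 0.27 log2 (SE, limma adjusted p = 0.0972), with IL-10+ arrays from 5.98 to 7.08 and IL-10- arrays from 6.99 to 7.38.

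The 3 measured subunits of RNA polymerase I, which transcribes the large ribosomal RNA precursor, were called in no comparison. With only 3 genes, that is not read as a difference from the 18.1%, 22.4% and 13.6% of all genes called. Polr1a, the largest subunit of RNA polymerase I, was 11.77, 11.81, 11.93, 12.00 and 11.82 in IL-10+ replicates 1 to 5, against 11.66, 11.53 and 11.94 in IL-10- replicates 2, 3 and 5, and 11.90 and 11.98 in total B cells. The IL-10+ values lay inside the range of the IL-10- values but for replicate 4. The change of Polr1a between the sorted fractions was 0.15 (95% interval -0.12 to 0.43), and its 4 detected probes gave both signs, from -0.29 to 0.18. Polr1b, the second largest subunit, had -0.05 and Polr1c, shared with RNA polymerase III, -0.19, with adjusted p of 0.835 and 0.386.

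Nop56, a core protein of the box C/D RNPs that guide 2′-O-methylation of ribosomal RNA, was lowest in IL-10- cells. It was 11.27, 11.48, 11.13, 10.79 and 11.14 in IL-10+ replicates 1 to 5, 10.65, 10.93 and 10.15 in IL-10- replicates 2, 3 and 5, and 11.49 and 11.84 in total B cells. All IL-10- arrays lay below both total B arrays, and IL-10- replicate 5 was the lowest array. The change of IL-10- against total B cells was -1.09 ± 0.25 log2 (SE), 2.13-fold higher in total B cells, with a limma adjusted p of 0.0194. Without total B replicate 1 it was -1.26 (adjusted p = 0.0653) and without total B replicate 2 -0.92 (adjusted p = 0.135). IL-10+ minus IL-10- was 0.58 ± 0.20 (SE, adjusted p = 0.0680), and IL-10+ minus total B -0.50 ± 0.23 (SE, adjusted p = 0.142). Without IL-10- replicate 5, the change between the sorted fractions was 0.37 (adjusted p = 0.204). It was called with slide as a block (0.61, adjusted p = 0.0196), with no background correction (0.55, 0.0447), when IL-10- replicate 3 (0.76, 0.0399) or IL-10+ replicate 4 (0.68, 0.0491) was left out. With slide as a block, IL-10+ against total B cells was called too (-0.77, adjusted p = 0.0228). Nop58, its partner in the same RNPs, was called in no comparison, and its change of IL-10- against total B cells was 0.16 (adjusted p = 0.628), of the other sign.

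None of the 3 box H/ACA proteins, which serve pseudouridylation of ribosomal RNA, was called in any comparison. Here too, 3 genes are too few to set against the 18.1%, 22.4% and 13.6% of all genes called. Nhp2, a core protein, was 13.76, 13.53, 13.59, 13.65 and 13.57 in IL-10+ replicates 1 to 5, against 13.25, 13.47 and 13.62 in IL-10- replicates 2, 3 and 5, and 13.45 and 13.48 in total B cells. IL-10+ minus IL-10- was 0.17 (95% interval -0.09 to 0.43), and with median scaling it was -0.04. A second, dimmer Nhp2 probe gave -0.20 in that comparison, and with every probe tested on its own it gave 0.81 ± 0.20 log2 (SE, limma adjusted p = 0.0235) in IL-10- against total B cells and 0.61 ± 0.18 (SE, adjusted p = 0.0357) in IL-10+ against total B cells. Gar1 had -0.22 between the sorted fractions (adjusted p = 0.225). Dkc1, dyskerin, the pseudouridine synthase, had 0.0037 with a 95% interval of -0.53 to 0.54.

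Of 8 measured genes of small subunit assembly, Rrp9 was lower in IL-10+ than in IL-10- cells and Tsr1 was higher in IL-10- than in total B cells. Each is 12.5% of the 8, where 18.1% and 13.6% of all genes were called in these comparisons. Rrp9, a protein of the U3 RNP that is needed to process the 18S ribosomal RNA, was 11.39, 11.44, 11.33, 11.11 and 11.29 in IL-10+ replicates 1 to 5, against 11.95, 11.75 and 11.96 in IL-10- replicates 2, 3 and 5. Total B arrays had 11.44 and 11.59. Every IL-10- array was above every other array, and IL-10+ and total B arrays met at 11.44. The change between the sorted fractions was -0.58 ± 0.12 log2 (SE), 1.49-fold higher in IL-10- cells, with a limma adjusted p of 0.00867. Leaving out any array kept that call, with adjusted p up to 0.0352, while the fit with the replicate block gave -0.53 and an adjusted p of 0.0569. Within slide 1 the change was -0.46 (adjusted p = 0.123) and within slide 2 -0.77 (adjusted p = 0.0925).

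Tsr1, known from yeast for its role in late maturation of the small subunit, was 10.88, 10.84, 11.16, 10.89 and 10.95 in IL-10+ replicates 1 to 5, against 11.14, 11.37 and 11.32 in IL-10- replicates 2, 3 and 5, and 10.75 and 10.69 in total B cells. The total B arrays were the lowest, and IL-10+ replicate 3 reached into the range of the IL-10- arrays. The change of IL-10- against total B cells was 0.56 ± 0.15 log2 (SE, limma adjusted p = 0.0316), a level 1.47-fold higher, and that of IL-10+ against IL-10- cells was -0.33 ± 0.12 (SE, adjusted p = 0.0746). IL-10+ against IL-10- cells was called with the mean of the probes (-0.71, adjusted p = 0.0171) and with no background correction (-0.31, 0.0302). A second Tsr1 probe, detected on 8 arrays, gave -1.09 ± 0.31 (SE) in IL-10+ against IL-10- cells with every probe tested on its own (adjusted p = 0.0368), and 0.20 (adjusted p = 0.782) in IL-10- against total B cells. The call of IL-10- against total B cells was lost with the mean of the probes (0.38, adjusted p = 0.272), within slide 2 (0.61, 0.0992), with a block for slide (0.56, 0.0626), and without IL-10- replicate 3 (0.51, 0.0763), IL-10- replicate 5 (0.53, 0.0532), total B replicate 1 (0.59, 0.130) or total B replicate 2 (0.53, 0.144).

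The other small subunit genes were not called in the main fit. Utp14a, part of the early processome, had 0.54 ± 0.20 log2 (SE, limma adjusted p = 0.0915) in IL-10+ against IL-10- cells and -0.76 ± 0.25 (SE, adjusted p = 0.0747) in IL-10- against total B cells. Between the sorted fractions, Utp14a was called higher in IL-10+ cells with slide as a block and when IL-10- replicate 3 was left out. Its IL-10- values were 9.07, 9.34 and 8.47 in replicates 2, 3 and 5. Ddx10, an RNA helicase, was 8.87 in IL-10- replicate 5, while the other 9 arrays lay between 9.88 and 10.28. Replicate 5 of the IL-10- cells was thus the lowest array for Nop56, Utp14a and Ddx10, and also for Nop58 and Wdr43. For Rrp9, Cad, Gar1, Polr1c, Nop2 and Mrto4 it was the highest. Within slide 2, where it is the only IL-10- array, Ddx10 was the 1 gene of the set called between the sorted fractions, and the lone array is assumed there to vary like the other groups. Rrp12, Wdr43 and Wdr75 changed by -0.09 to 0.03 between the sorted fractions, with adjusted p of 0.771 to 0.869. Bysl was detected on 5 arrays in all, 3 of IL-10+, 1 of IL-10- and 1 of total B cells, and its change of -0.19 had a 95% interval of -0.71 to 0.33.

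**Figure D3:**
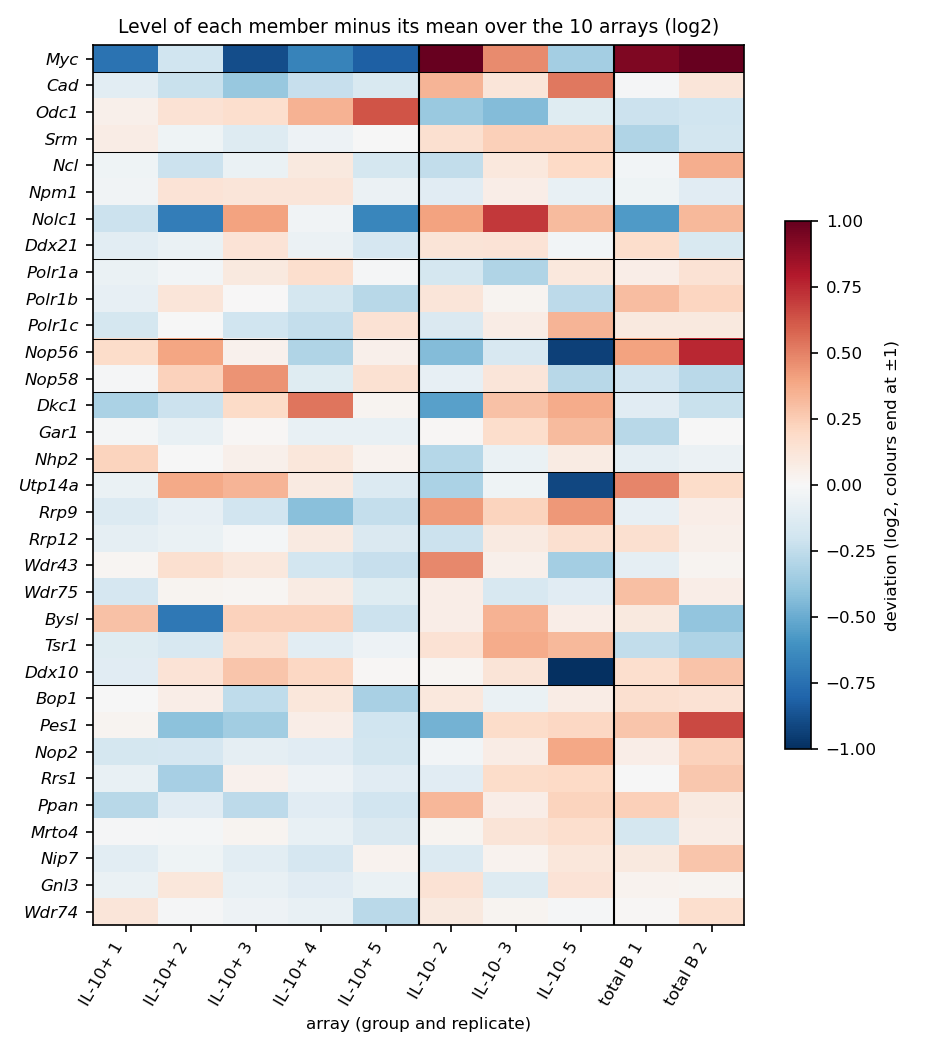
Level of each measured gene on each array minus its mean over the 10 arrays (log2, colours end at ±1), with genes in rows by role and arrays in columns by group. The Myc row separates IL-10+ arrays, all below the mean, from total B arrays. IL-10- replicate 5 shows the lowest values for Nop56, Utp14a and Ddx10 and the highest for Cad and Nop2, among others.

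All 9 measured genes of large subunit assembly had lower means in IL-10+ than in IL-10- cells, with changes of -0.40 to -0.08, and lower means than in total B cells, with changes of -0.64 to -0.0014. Since the same IL-10+ arrays stand in both comparisons, the second is no independent support for the first. Over all 11185 genes, 6005 were below 0 against IL-10- cells and 5657 against total B cells. Only Ppan was called, against IL-10- cells, or 11.1% of the 9, where 18.1% of all genes were called. With the mean of each gene's probes, 8 of 9 were below 0 against IL-10- cells, and with median scaling 8 of 9 were below 0 against total B cells. Ppan, whose yeast counterparts act in early assembly of the large subunit, was 12.76, 12.93, 12.78, 12.93 and 12.85 in IL-10+ replicates 1 to 5, against 13.37, 13.11 and 13.26 in IL-10- replicates 2, 3 and 5, and 13.28 and 13.13 in total B cells. Every IL-10+ array was below every other array. The change was -0.40 ± 0.11 log2 (SE) against IL-10- cells, with a limma adjusted p of 0.0329, and -0.36 ± 0.13 (SE) against total B cells, with an adjusted p of 0.0704. The call rested on the full set of arrays. It was lost with the replicate block (-0.39, adjusted p = 0.0984), within slides 1 and 2 (-0.42 and -0.37, adjusted p = 0.170 and 0.332), and without IL-10- replicate 2 (-0.33, 0.116) or 5 (-0.39, 0.0614) or IL-10+ replicate 1 (-0.38, 0.0606), 3 (-0.38, 0.0660), 4 (-0.42, 0.0505) or 5 (-0.40, 0.0627). A second Ppan probe gave -0.54 ± 0.20 (SE, adjusted p = 0.0942 with every probe tested on its own).

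Nop2, a ribosomal RNA methyltransferase, was the only gene with an E-box before its start among those searched. Its level was 10.35, 10.36, 10.44, 10.41 and 10.34 in IL-10+ replicates 1 to 5, against 10.50, 10.60 and 10.91 in IL-10- replicates 2, 3 and 5, and 10.59 and 10.76 in total B cells. All IL-10+ arrays lay below all others, with an SD of 0.04 among themselves, yet the change of -0.29 ± 0.12 (SE) against IL-10- cells was not called (limma adjusted p = 0.122). Its other probes gave -0.42 ± 0.12 (SE, adjusted p = 0.0316 with every probe tested on its own) and 1.10 ± 0.37 (SE, adjusted p = 0.0663), so 1 of 3 probes had the opposite sign. Pes1 and Bop1, partners in the complex that processes the large subunit RNAs, had -0.15 and -0.12 against IL-10- cells. Pes1 in IL-10+ against total B cells had -0.64 ± 0.22 log2 (SE, limma adjusted p = 0.0595), with IL-10+ arrays at 10.42, 9.98, 10.04, 10.46 and 10.19 below total B arrays at 10.67 and 11.05. Rrs1, Mrto4, Nip7, Gnl3 and Wdr74 had changes of -0.19 to -0.08 against IL-10- cells, with adjusted p of 0.341 to 0.660. Gnl3, nucleostemin, a nucleolar GTPase, averaged 14.09 ± 0.09 over the 5 IL-10+ arrays and 14.19 ± 0.15 over the 3 IL-10- arrays (SD), and 1 of its 3 probes had the opposite sign.

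Set against total B cells, IL-10+ cells had Myc as the only one of the 33 genes called, or 3.03%, where 22.4% of all genes were called, 12.0% higher and 10.4% lower. The median change was -0.15 log2, against -0.01 over all genes. Of the 33, 5 had an unadjusted p under 0.05, against 4016 of all 11185 genes. Without Myc, none of 32 was called, and 4 had an unadjusted p under 0.05. The count was 2 with only the arrays of both groups in the fit (Myc and Pes1), 2 within slide 2 (Myc and Odc1), and 4 with slide as a block (Myc, Nop56, Odc1 and Polr1b). Between IL-10- and total B cells, 3 of 33 genes were called, or 9.09%, where 13.6% of all genes were called, 7.51% higher and 6.04% lower. The 2 higher were Tsr1 and Srm, and the lower was Nop56. The median change there was -0.01, against 0.01 over all genes, and with median scaling these were 0.14 and 0.11, with 912 genes higher and 405 lower over the array, against 840 and 676. All 3 calls were lost with only these 2 groups in the fit or without either total B array. The comparisons share arrays, so their counts are not independent of each other.

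As a whole, the genes other than Myc stood close together in the 3 groups. The mean level of these 32 genes, as mean ± SD over arrays, was 11.24 ± 0.05 for the 5 IL-10+ arrays, 11.31 ± 0.05 for the 3 IL-10- arrays and 11.33 ± 0.04 for the 2 total B arrays. The arrays ranged from 11.18 to 11.30 in IL-10+, 11.26 to 11.36 in IL-10- and 11.30 to 11.36 in total B cells. The ranges of IL-10+ and IL-10- arrays overlapped between different replicate numbers. Within the same-numbered pairs, IL-10+ was below IL-10- each time, with 11.22 against 11.26 for replicate 2, 11.30 against 11.36 for replicate 3 and 11.18 against 11.30 for replicate 5. No test was made of these means. Of the 33 genes, 26 changed by less than 0.5 log2 in either direction between IL-10+ and IL-10- cells, as did 8435 of all 11185 genes.

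**Figure D4:**
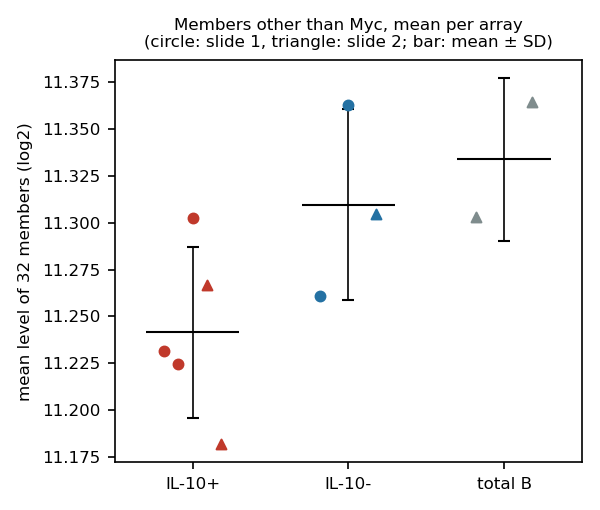
Mean level of the 32 measured genes other than Myc on each array (log2 intensity, y axis, which does not start at 0) in IL-10+, IL-10- and total B cells. Points are arrays, circles for slide 1 and triangles for slide 2, and bars are mean ± SD. The IL-10+ range (11.18 to 11.30) overlaps the IL-10- range (11.26 to 11.36), though IL-10+ is lower in each of the 3 same-numbered pairs.

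Further genes of the same pathways were read from 8 lists. The share of a list's measured genes that was called was 0 to 37.5% in IL-10+ against IL-10- cells, 9.68% to 25.0% in IL-10+ against total B cells and 0 to 22.2% in IL-10- against total B cells, where 18.1%, 22.4% and 13.6% of all genes were called. In each comparison, 1 list of the 8 stood above the share of all genes. For IL-10+ cells it was the genes known as repressed by Myc, against IL-10- cells (3 of 8) and total B cells (2 of 8). In the other comparison it was the Max network (2 of 9). These counts are small, and the lists were chosen with earlier results of these data known. Partners and rivals of Myc in the Max network were mostly not called. Of 9 measured, Mlxip, a glucose-sensing relative that pairs with Mlx, was lower in IL-10+ than in IL-10- cells, by -0.71 ± 0.15 log2 (SE, limma adjusted p = 0.00966). Mxd1, a repressor that competes with Myc for Max, was lower than in total B cells by -1.71 ± 0.41 in IL-10+ and by -1.77 ± 0.44 in IL-10- cells (SE, adjusted p = 0.0131 and 0.0271). Its levels were 6.63, 6.98, 6.54, 7.05 and 7.41 in IL-10+ cells, 5.93, 7.23 and 7.44 in IL-10- cells and 9.14 and 8.13 in total B cells, so both sorted fractions lay below both total B arrays. Mxd4, of the same repressor family, was higher by at least 1.20-fold in IL-10+ and at least 1.24-fold in IL-10- cells (adjusted p = 0.0161 and 0.0310). Mxd4 was detected on 4 of 5 IL-10+ and 2 of 3 IL-10- arrays but on no total B array, so these folds are bounds, for which each total B array was set to its dimmest detected probe or to the Mxd4 value itself, whichever was higher.

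Further small subunit genes that were called between the sorted fractions had the direction of Rrp9. Of 31 measured, 5 were lower in IL-10+ than in IL-10- cells and none was higher. That is 16.1%, against 18.1% of all genes, 9.12% higher and 9.01% lower. The median was -0.11 against -0.03. Rrp7a had 6.48, 6.45, 6.21, 6.32 and 6.82 in IL-10+ replicates 1 to 5, against 7.26, 7.59 and 7.75 in IL-10- replicates 2, 3 and 5, a change of -1.08 ± 0.21 log2 (SE, limma adjusted p = 0.00615). Nat10, the acetyltransferase of 18S ribosomal RNA, had -0.69 ± 0.14 (SE), Tbl3 -0.66 ± 0.18 (SE) and Rcl1 -0.47 ± 0.12 (SE), and the IL-10+ arrays of these genes did not overlap the IL-10- arrays. The fifth, Mphosph10, a U3 RNP protein, had -0.79 (adjusted p = 0.0421) and was named after its value was seen. Compared with total B cells, Mphosph10 (-1.19 ± 0.27), Pwp2 (-0.38 ± 0.12) and Heatr1 (-0.39 ± 0.13) were lower in IL-10+ cells (SE). In IL-10- cells, Rrp7a and Nat10 were higher than in total B cells, by 1.22 ± 0.26 and 0.64 ± 0.18, and Krr1 was lower, by -0.91 ± 0.26 (SE).

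Of 35 further large subunit genes, Senp3, a SUMO protease of the nucleolus, and Ddx31, an RNA helicase, were lower in IL-10+ than in IL-10- cells, by -0.59 ± 0.12 and -0.57 ± 0.14 log2 (SE), and the median was -0.06. These are 5.71% of the list, below the 18.1% of all genes. In IL-10+ cells, 21 of the 35 were below 0 and 14 above against IL-10- cells, and 27 were below and 8 above against total B cells. Against total B cells, 4 were lower in IL-10+ cells and 1 was higher, or 14.3%, also below the 22.4% of all genes. Mdn1, the large ATPase that remodels the precursor of the large subunit, was lower by -0.64 ± 0.14, Mak16 by -0.49 ± 0.12, Nol9 by -0.56 ± 0.15 and Urb2 by -0.64 ± 0.20 (SE). The higher gene was Eif6, an anti-association factor of the large subunit, with 0.45 ± 0.14 (SE, limma adjusted p = 0.0426), named after its value was seen. None of the 35 was called in IL-10- against total B cells, where 13.6% of all genes were called. There, 5 had an unadjusted p under 0.05, as did 3316 of all 11185 genes. Of 8 snoRNP genes, none was called between the sorted fractions, where 18.1% of all genes were called. An unadjusted p under 0.05 was reached there by 1 of them, and by 3695 of all 11185 genes. Shq1, an assembly factor for dyskerin, was lower than in total B cells in both IL-10+ (-0.72 ± 0.14) and IL-10- cells (-0.56 ± 0.15; SE). That is 12.5% of the 8 in each comparison, against 22.4% and 13.6% of all genes.

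Of 10 further RNA polymerase I factors, Taf1a, part of the promoter-binding factor SL1, was lower in IL-10+ cells than in IL-10- cells (-0.56 ± 0.15 log2) and than in total B cells (-0.57 ± 0.17; SE). Polr1d, a subunit shared with RNA polymerase III, was higher in IL-10+ than in total B cells, by 0.58 ± 0.13 (SE, limma adjusted p = 0.00839). Taf1c, also of SL1, was lower in IL-10- than in total B cells, by -1.31 ± 0.29 (SE), and was detected on 1 of 3 IL-10- arrays. Of 16 RNA polymerase III genes, which serve 5S ribosomal RNA and tRNAs, Gtf3a, the 5S transcription factor TFIIIA, was higher in IL-10+ than in IL-10- cells, by 0.53 ± 0.14 (SE, adjusted p = 0.0262). Polr3k was higher in IL-10+ than in total B cells (0.73 ± 0.23), and Polr3a (-0.69 ± 0.17) and Polr3e (-0.49 ± 0.14) were lower (SE). None of the 16 was called in IL-10- against total B cells, where 2 had an unadjusted p under 0.05, as did 3316 of all 11185 genes. In IL-10+ against IL-10- cells, 10% of the RNA polymerase I factors and 6.25% of the RNA polymerase III genes were called, against 18.1% of all genes. For IL-10+ against total B cells these shares were 20% and 18.75%, against 22.4%. For IL-10- against total B cells they were 10% and 0%, against 13.6%. Neither list stood above the share of all genes.

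Other genes known as Myc-induced were called in both directions. Of 29 measured, 2 were higher and 2 lower in IL-10+ than in IL-10- cells, or 13.8%, against 18.1% of all genes, and the median was 0.11. Umps, which completes pyrimidine synthesis, was 10.07, 10.16, 9.82, 9.81 and 9.45 in IL-10+ replicates 1 to 5, against 8.67, 9.21 and 7.31 in IL-10- replicates 2, 3 and 5, and 10.04 and 10.34 in total B cells. The IL-10- arrays were the lowest, replicate 5 the lowest of all, and the change was 1.47 ± 0.35 log2 (SE, limma adjusted p = 0.0168) against IL-10- cells. Umps thus moved opposite to Cad, which opens the same pathway. Ccnd2, cyclin D2, was higher in IL-10+ cells than in IL-10- cells (0.85 ± 0.24) and than in total B cells (1.18 ± 0.27; SE). Shmt2, a mitochondrial enzyme of folate metabolism, and Paics, of purine synthesis, were lower in IL-10+ than in IL-10- cells, by -0.57 ± 0.14 and -0.41 ± 0.13 (SE). Mthfd2 and Shmt1, also of folate metabolism, were lower than in total B cells in IL-10+ (-0.54 ± 0.16 and -0.66 ± 0.16) and in IL-10- cells (-0.87 ± 0.18 and -0.62 ± 0.18; SE), and Umps was lower in IL-10- than in total B cells (-1.79 ± 0.44; SE).

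Of 8 measured genes known as repressed by Myc, 2 were higher and 1 lower in IL-10+ than in IL-10- cells, or 37.5%, against 18.1% of all genes (9.12% higher and 9.01% lower), while the median was -0.12. Cdkn2b, the cell cycle inhibitor p15, was 10.15, 9.84, 9.85, 9.76 and 9.26 in IL-10+ replicates 1 to 5, against 5.78, 6.53 and 5.58 in IL-10- replicates 2, 3 and 5, and 6.40 and 5.56 in total B cells. Detection was reached on 2 of 3 IL-10- arrays and on 1 of 2 total B arrays, so part of each difference rests on values not above background. Its change was 3.81 ± 0.27 log2 against IL-10- cells and 3.80 ± 0.31 against total B cells (SE). Gadd45a, a stress-response gene, was higher in IL-10+ than in IL-10- cells (1.35 ± 0.25) and than in total B cells (2.49 ± 0.29), and in IL-10- than in total B cells (1.14 ± 0.31; SE). Cdkn1a, the inhibitor p21, went the other way, by -1.06 ± 0.26 against IL-10- cells (SE, limma adjusted p = 0.0195), with IL-10+ arrays from 6.21 to 7.26 and IL-10- arrays from 7.63 to 8.09.

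**Figure D5:**
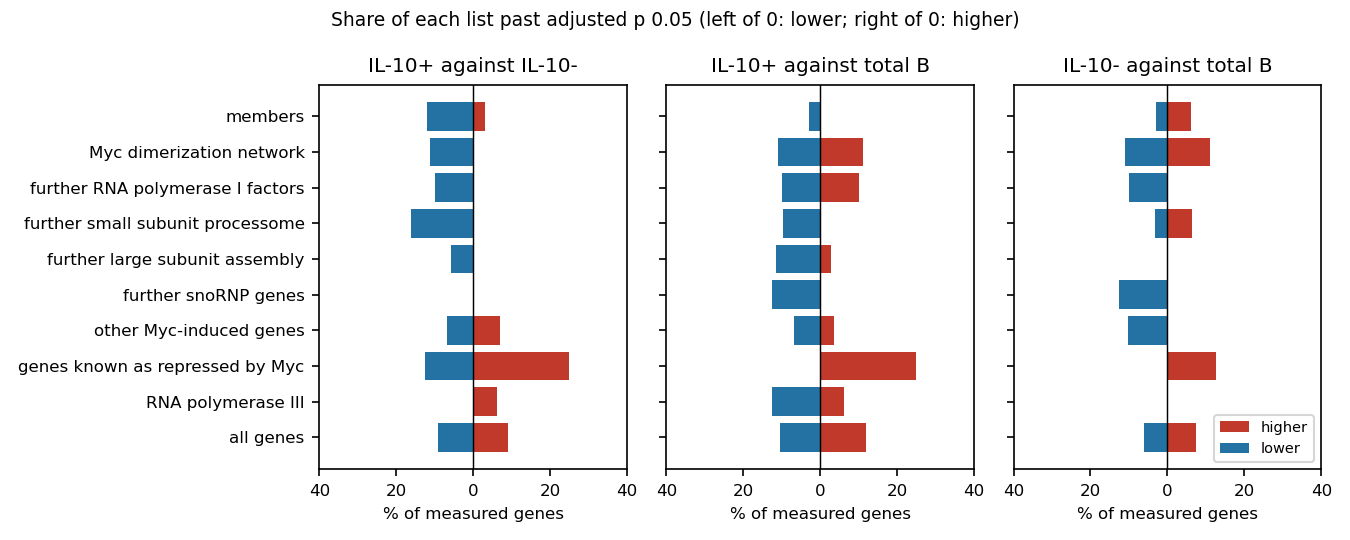
Share of each list's measured genes called (percent, x axis), lower to the left of 0 in blue and higher to the right in red, for the 3 comparisons, with all genes at the bottom. The bars of the 33 genes sum to 15.2%, 3.03% and 9.09%, against 18.1%, 22.4% and 13.6% of all genes.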

How the data were processed

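Expression was measured in 5 IL-10+, 3 IL-10- and 2 total B cell samples, grouped by their titles. Per the file headers, the deposited intensity values are linear and were written by GenomeStudio 1.9.0 without normalization. The deposited detection score rises with signal, and 1 minus the score was used as the detection p. A second deposited table of processed values, for which the submitters' processing notes name lumi, was not used here because its probe names and those of the first table do not match up.

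The neqc function of limma 3.58.1 in R 4.3.3 corrected background from the detection p and quantile normalized the arrays (offset 16). A probe stayed in if it was detected at p below 0.01 on 2 arrays or more, as 16496 of 45281 were. Each of 11185 genes was represented by its kept probe of highest mean level. Names were updated through RefSeq GRCm38.p6 symbols and unambiguous synonyms (16223 and 5706 of 30854 names), and 10 of the 38 genes were found at least in part by an older symbol. The groups were compared in 1 fit of all 10 arrays with lmFit and eBayes, two-sided, with 7 residual degrees of freedom and 10.6 after moderation, and with Benjamini-Hochberg adjustment at 0.05. The fit was tested on simulated data. The number of arrays limits the precision.

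The genes, role groups and lists were chosen with earlier results of these data known. Named were Myc, every gene called in a comparison, the gene with the highest level of each role group with no call, and from each further list up to 4 called genes per comparison. The remaining genes of the set are given in brief, those singled out among them after their values were seen, and Mphosph10 (between the sorted fractions), Eif6 and the promoter of Nop2 were added after their values were seen. Same-numbered IL-10+ and IL-10- samples deviated together (correlation over genes 0.348 for replicate 2, 0.238 for replicate 3, 0.319 for replicate 5), so the title numbers were read as pairs. The main fit had no term for pair or slide, and these entered only in the alternatives. Each pair lies on 1 slide, and the differently numbered IL-10+ 4 and IL-10- 5, both on slide 2, had 0.276. Alternatives covered background, scaling, filter, probe choice, slide, pairing and each array left out.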

Additional observations from a re-analysis of the deposited data

How the results depend on the processing

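For IL-10+ against IL-10- cells, the count of called genes of the set, 5, was 8 with no background correction and 1 within slide 1 (Myc). With slide as a block it was 7, with Nop56 and Utp14a added, where 2397 genes were called over the array. It was 3 with the replicate block, where Rrp9 and Ppan lost the call and Cad, Myc and Odc1 were called. Leaving out 1 array at a time gave 2 to 5, with the lowest count without IL-10- replicate 2 (Cad and Rrp9) and 3 without IL-10+ replicate 5. Against total B cells, the count of 1 for IL-10+ cells was 4 with no background correction, 2 with only the 2 groups in the fit, 4 with slide as a block and 2 within slide 2. With 1 array left out it was 0 to 2, with 0 without total B replicate 2 (1230 genes called over the array) and 2 without IL-10- replicate 2. Of IL-10- cells against total B cells, the count of 3 was 0 with only the 2 groups in the fit, where 430 genes were called over the array, and 0 to 3 with 1 array left out. It was 0 without either total B array (344 genes without replicate 1 and 463 without replicate 2), and 1 without IL-10- replicate 5. Of 9 called changes of named genes, none changed sign under 181 alternatives, and 51 of these alternatives ended a call. Of 24 changes that were not called, 21 of 468 alternatives turned the sign and 13 gave a call. With median scaling the turned values were -0.24 for Npm1 and -0.0437 for Nhp2 in IL-10+ against IL-10- cells, and 0.14 for Odc1 and 0.22 for Nhp2 in IL-10- against total B cells. With the mean of a gene's probes they were 0.086 for Srm and -0.0156 for Nhp2 in IL-10+ against IL-10- cells, -0.33 for Tsr1 and 0.0277 for Polr1a in IL-10+ against total B cells, and 0.40 for Nhp2 and 0.0194 for Polr1a in IL-10- against total B cells. With slide as a block they were 0.024 for Polr1a in IL-10+ against total B cells, and 0.13 for Odc1 and 0.0334 for Nhp2 in IL-10- against total B cells. Within slide 2 they were -0.0046 for Nhp2 and -0.0342 for Polr1a in IL-10+ against IL-10- cells, and 0.0883 for Odc1 and 0.15 for Nhp2 in IL-10- against total B cells. With 1 array left out, the change of IL-10- against total B cells ranged from -0.0373 to 0.12 for Ppan, from -0.0168 to 0.0756 for Npm1 and from -0.10 to 0.0766 for Nhp2. Fewer arrays, within a slide, after leaving one out or with only 2 groups in the fit, leave fewer degrees of freedom. The added terms of the slide and replicate blocks do so too, and only the same-numbered pairs inform the replicate block. How much of each change comes from this was not tested, nor was the cause of the other changes. Total B cells have 2 arrays, both on slide 2, so no comparison with them could be made within slide 1. No replicate block was fitted against total B cells, whose arrays share no slide with the sorted arrays of the same number. Testing every probe on its own was chosen after seeing the data.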
